A study of Mus musculus with 18 samples.

Results

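The genes described here dipped at day 4 of embryoid body (EB) differentiation in wt cells: their signal was lower in day 4 EBs than in embryonic stem cells (ESCs) and was higher again in day 16 EBs. A probe set with a single gene symbol was a member when its mean wt signal at day 4 lay at least 1 log2 unit (2-fold) below day 0 and its mean wt signal at day 16 at least 1 log2 unit above day 4. Of the 35512 probe sets on the array, 21789 had a single symbol and 133 of these (0.61%) met both lines. After 7 genes had been left out by name, 128 probe sets of 125 genes remained, out of 19938 genes with a single symbol. *Fabp3*, *Hspb1* and *Tpd52* had 2 member probe sets each, which gave nearly the same changes and are not independent of each other. Because the wt arrays chose the members, every wt value below is a description without a test. The mutant arrays took no part in the choice, and comparisons among them were tested.

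RNA was measured on 18 Affymetrix GeneChip Mouse Gene 1.0 ST arrays, 2 for each of 9 groups, which the labels number as biological replicates. The groups were TKO cells (dnmt1-/-, dnmt3a-/-, dnmt3b-/-), *Dnmt1-/-* cells and wt cells, each sampled undifferentiated (day 0) and after 4 and 16 days in EBs. All 3 lines derive from J1 ESCs (strain 129Sv/Jae), and all EBs were made with the hanging drop method in medium without leukemia inhibitory factor (LIF), the cytokine that sustains ESC self-renewal. As each genotype was 1 line, effects of the mutations and of the line cannot be told apart. Signals are log2 values per probe set that ran from 1.21 to 14.01, with array medians between 5.77 and 5.90. The probe set of *Dnmt1* read 8.40 to 8.75 on the 6 TKO arrays and 8.45 to 8.86 on the 6 *Dnmt1-/-* arrays, against 9.16 to 9.77 on the 6 wt arrays. Mean levels of 12 ESC identity markers lay between 10.48 and 10.81 on all day 0 arrays, whatever the genotype. In RNA of whole EBs, fewer cells of a type and less RNA per cell cannot be told apart.

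Dnmt1 copies DNA methylation onto newly replicated strands, and Dnmt3a and Dnmt3b place methylation on unmethylated DNA. When ESCs leave self-renewal, the compact epithelial cells of the naive state pass through an epiblast-like stage, and part of them go through an epithelial to mesenchymal transition like that of the primitive streak. Later, epithelia such as visceral endoderm form on and in the EB, together with mesodermal and stromal cells. Genes for epithelial adhesion, membrane transport, lipid uptake and detoxification serve both ESCs and such differentiated epithelia.

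In wt, the median member was 1.47 log2 units lower at day 4 than at day 0, with a range of changes from -5.41 to -1.004, and 1.63 units higher at day 16 than at day 4, with a largest change of 4.86. The corresponding wt medians over all 35512 probe sets were -0.003 and -0.080. Against their own day 0 means, the members' median stood at -1.45 and -1.56 on the 2 wt arrays of day 4 and at 0.05 and 0.14 on those of day 16. At day 16, 25 members stood at least 1 unit above their wt day 0 level, 15 stood at least 1 unit below it and 88 lay in between. Next to the line on the decrease, *Cd34* (-1.004), *Tmem63a* (-1.009) and *Plpp1* (-1.010) were just inside and *Esrp2* (-0.997), *Trf* (-0.997) and *Ptp4a3* (-0.986) just outside. Next to the line on the return, *Anxa11* (1.001), *Grtp1* (1.044) and *Lgr4* (1.061) were inside and *Gm7982* (0.990), *Nr0b1* (0.988) and *Foxp1* (0.979) outside.

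**Figure D1:**
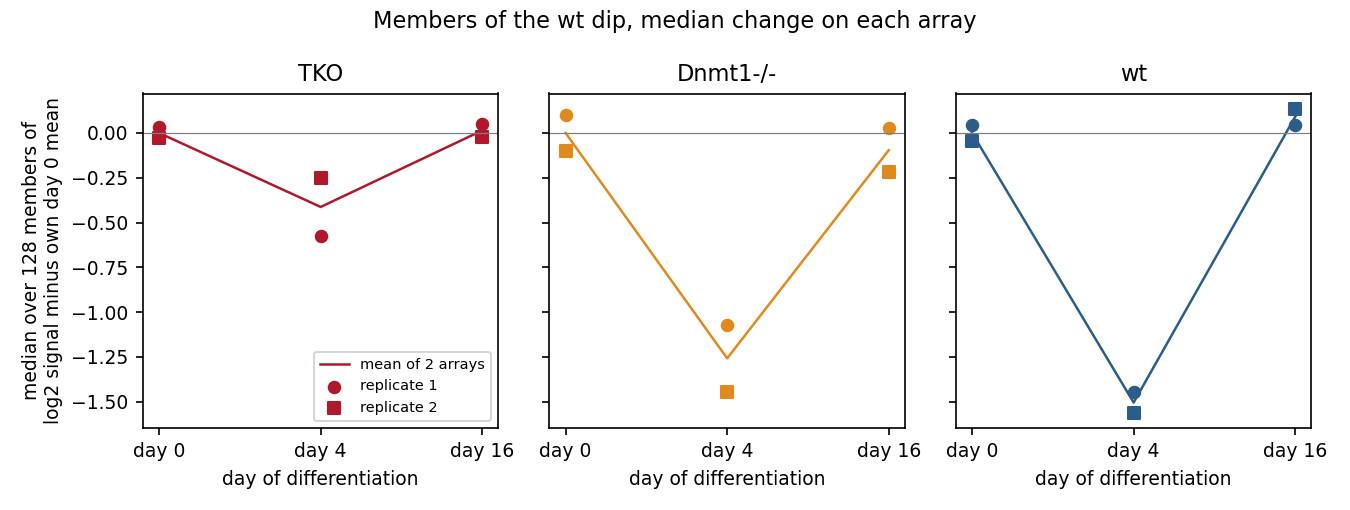
Median over the 128 members of the log2 signal minus the genotype's own day 0 mean (vertical axis, log2 units) by day of differentiation (horizontal axis, categories), for TKO, Dnmt1-/- and wt. Symbols are single arrays (circle replicate 1, square replicate 2) and the line joins the means of the 2 arrays; at day 4 the arrays sat at -0.58 and -0.25 in TKO, -1.07 and -1.45 in Dnmt1-/- and -1.45 and -1.56 in wt.

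The deepest wt members, ranked by the smaller of the 2 wt changes, were *Liph*, *Nqo1*, *Pramel13*, *Anxa1*, *Itga3*, *Pcolce*, *Klf5* and *Laptm5*. *Liph* encodes a lipase that releases lysophosphatidic acid, *Nqo1* a quinone reductase of the antioxidant response, *Pramel13* a protein of the multicopy Prame-like family and *Anxa1* a calcium-dependent phospholipid-binding protein. Promoters of these 4 are shown because CpG dinucleotides, the substrate of the enzymes missing in the mutants, are printed there in capitals. The sequences are reference windows of 300 bases from RefSeq (GRCm38.p6), from 250 bases before to 50 bases after the annotated start, read 5′ to 3′ along the gene, and not the sequence of these cell lines.
Liph (chr16:21995493-21995792, minus strand): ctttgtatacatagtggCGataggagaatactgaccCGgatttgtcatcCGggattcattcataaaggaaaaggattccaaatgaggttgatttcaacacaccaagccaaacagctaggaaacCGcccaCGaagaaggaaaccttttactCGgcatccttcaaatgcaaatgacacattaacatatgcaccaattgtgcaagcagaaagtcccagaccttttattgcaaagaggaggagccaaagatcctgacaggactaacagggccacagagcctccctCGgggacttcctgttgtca
Nqo1 (chr8:107403156-107403455, minus strand): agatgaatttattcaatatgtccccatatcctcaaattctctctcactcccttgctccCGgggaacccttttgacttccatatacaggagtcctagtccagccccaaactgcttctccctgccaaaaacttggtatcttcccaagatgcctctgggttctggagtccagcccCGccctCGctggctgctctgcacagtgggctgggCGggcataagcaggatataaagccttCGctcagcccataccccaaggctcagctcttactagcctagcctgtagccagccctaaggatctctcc
Pramel13 (chr4:144408415-144408714, minus strand): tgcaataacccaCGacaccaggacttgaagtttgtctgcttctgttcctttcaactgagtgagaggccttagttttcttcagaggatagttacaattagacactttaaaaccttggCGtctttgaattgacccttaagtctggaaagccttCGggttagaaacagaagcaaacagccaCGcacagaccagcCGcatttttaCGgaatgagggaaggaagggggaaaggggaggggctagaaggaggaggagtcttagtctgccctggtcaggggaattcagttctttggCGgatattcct
Anxa1 (chr19:20390622-20390921, minus strand): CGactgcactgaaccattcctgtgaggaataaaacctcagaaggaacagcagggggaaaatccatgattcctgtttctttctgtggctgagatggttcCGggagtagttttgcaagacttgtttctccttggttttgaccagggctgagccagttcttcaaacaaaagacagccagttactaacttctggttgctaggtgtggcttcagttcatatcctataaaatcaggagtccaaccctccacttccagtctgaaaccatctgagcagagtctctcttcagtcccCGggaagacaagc
These windows hold 7, 5, 7 and 3 CpGs. The methylation state of these CpGs was not measured on the arrays.

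A RefSeq promoter window was found for 99 of the 125 member genes, 20 of them with several windows, of which the first listed was used. The median member window held 15 CpGs, against 7 for the first windows of all 27025 genes in the table, and 9 of 99 member windows (9.09%) had fewer than 5 CpGs, against 38.3% of all. Member genes called lower at day 4 in both mutants had a median of 8 CpGs (21 genes), those called lower in *Dnmt1-/-* alone 15.5 (36 genes) and those called lower in neither mutant 20 (41 genes), with wide and overlapping ranges of 0 to 57, 1 to 38 and 3 to 47. Short motifs were counted on both strands. The AP-1 letters TGANTCA occurred in 13 member windows (13.1%) and in 7.93% of all windows, the TEAD letters GGAATG in 15 (15.2%) and 14.6%, the antioxidant response core TGACNNNGC in 15 (15.2%) and 12.5%, the CArG box in 6 (6.06%) and 1.57%, and the KLF letters CACCC in 69 (69.7%) and 56.7%. These are counts of letters in a reference window and were not tested, and all windows include genes that ESCs do not express. Of the printed windows, those of *Pramel13* and *Anxa1* hold the TEAD letters, and none of the 4 holds the others.

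Members were then examined for the decrease at day 4 in the mutants. A call required a log2 change of at least 1 in size and an adjusted p under 0.05 (limma over all 35512 probe sets, Benjamini-Hochberg within the comparison), and no filter on low signals was applied, so all 128 members were tested. Of these, 29 were called lower in TKO EBs at day 4 than in TKO ESCs (22.7%), against 0.898% of all probe sets. In *Dnmt1-/-* the count was 74 (57.8%), against 2.05% of all probe sets. The median log2 change of the members was -0.43 in TKO and -1.21 in *Dnmt1-/-*, against -0.03 and -0.02 over all probe sets, and the TKO median was -0.25 without replicate 1 of TKO day 4. The day 4 mean lay below the day 0 mean for 92 members in TKO and for 123 in *Dnmt1-/-*. Both day 4 arrays lay below both day 0 arrays for 70 members in TKO (28.8% of all probe sets) and for 112 in *Dnmt1-/-* (24.5% of all probe sets). The TKO count rested on single arrays: without replicate 1 of TKO day 4 it was 8, without replicate 1 or 2 of TKO day 0 it was 12 or 16.

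Of the 29 members called lower in TKO, 28 were also called lower in *Dnmt1-/-*, a further 46 were called in *Dnmt1-/-* alone and 53 in neither line. The one member called in TKO alone was *Emp1*, an epithelial membrane protein: 7.91 and 7.41 at day 0, 5.73 and 5.50 at day 4 and 7.01 and 6.38 at day 16. In *Dnmt1-/-* it gave 7.72 and 6.86 at day 0, 6.15 and 6.003 at day 4 and 8.25 and 7.57 at day 16, a change of -1.21 ± 0.36 (SE, adjusted p = 0.052) that just missed the threshold. The largest TKO decreases belonged to *Pcolce*, which enhances procollagen processing, *Fbxo15*, *Tet2*, *Slc7a1*, *Tgm1* and *Emp1*. *Pcolce* read 9.60 and 9.41 at day 0, 6.86 and 7.46 at day 4 and 8.06 and 7.43 at day 16 in TKO, and its day 4 change was -2.34 ± 0.23 (SE, adjusted p = 0.0003). In *Dnmt1-/-* the change of *Pcolce* was -1.96 ± 0.23 (SE, adjusted p = 0.00027). *Tgm1*, a transglutaminase of stratified epithelia, changed by -2.05 ± 0.21 (SE, adjusted p = 0.0003) in TKO and by -1.31 ± 0.21 (SE, adjusted p = 0.0016) in *Dnmt1-/-*. The clathrin light chain gene *Cltb* changed by -1.96 ± 0.20 (SE, adjusted p = 0.0003) in TKO and by -2.68 ± 0.20 (SE, adjusted p = 2.7e-05) in *Dnmt1-/-*, and it stayed low in TKO at day 16 (7.35 and 7.31, against 7.18 and 7.36 at day 4).

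In TKO, 3 members were called higher at day 4, opposite to wt (2.34% of members, against 2.27% of all probe sets), and none was in *Dnmt1-/-* (limma; 1 at an unadjusted p under 0.05; all probe sets 2.56%). They were *Gstm3*, a glutathione S-transferase, *Mal2*, which acts in transcytosis of epithelial cells, and *Ugt8a*, the galactosyltransferase of galactosylceramide synthesis. *Mal2* read 5.53 and 5.72 at day 0, 7.47 and 7.01 at day 4 and 6.28 and 6.13 at day 16 in TKO, so that both day 4 arrays lay above all other TKO arrays. In *Dnmt1-/-* it read 5.75 and 5.78 at day 0, 5.98 and 5.05 at day 4 and 6.10 and 5.71 at day 16, and in wt 6.65 and 6.24 at day 0, 5.29 and 5.30 at day 4 and 8.92 and 8.57 at day 16. The TKO change at day 4 was 1.62 ± 0.27 (SE, adjusted p = 0.0038) for *Mal2*, 1.11 ± 0.21 (SE, adjusted p = 0.0084) for *Ugt8a* and 1.14 ± 0.30 (SE, adjusted p = 0.041) for *Gstm3*. The last of these was lost under 10 of the alternatives tried. *Anxa3*, named here after its values were seen, had the largest positive mean change in both mutants at day 4 (2.06, SE 0.64, adjusted p = 0.085 in TKO), but its wt day 0 arrays stood far apart at 8.89 and 6.99.

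**Figure D2:**
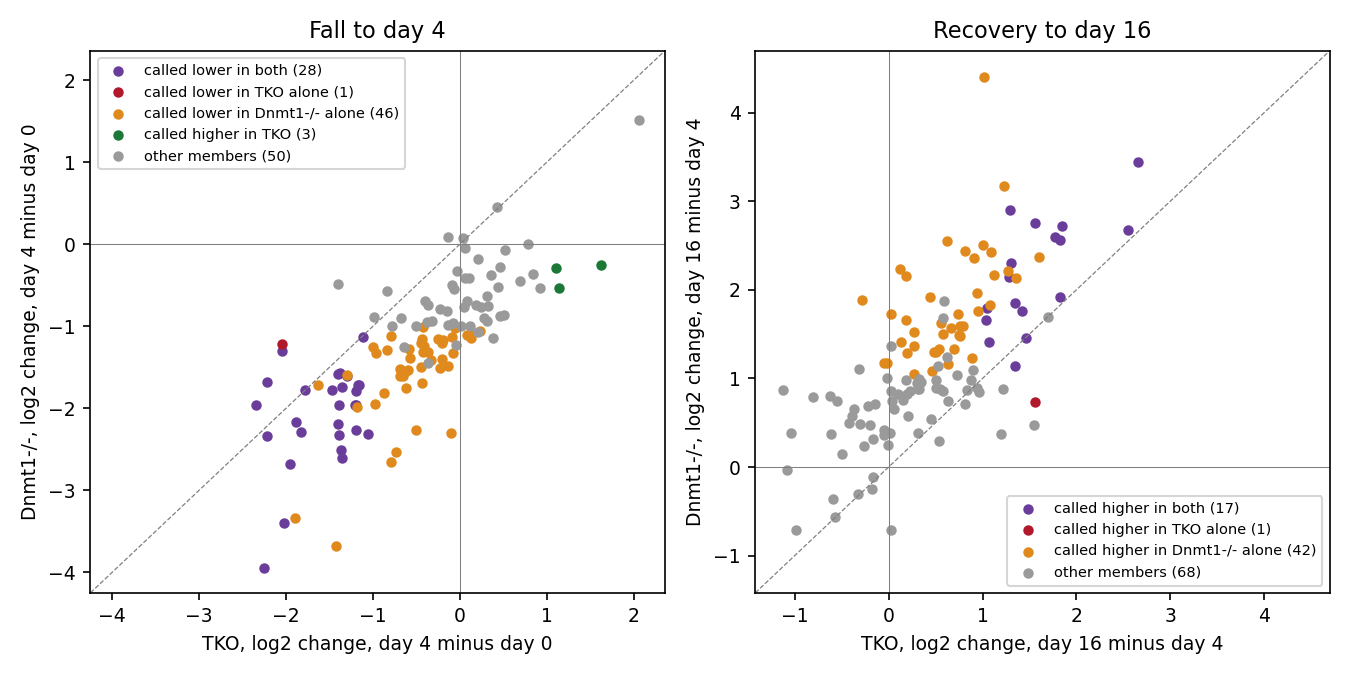
Log2 change of each of the 128 members in TKO (horizontal axis) and in Dnmt1-/- (vertical axis), for day 4 minus day 0 on the left and day 16 minus day 4 on the right; colours give the calls and the dashed line marks equal change. Most points lie below the line on the left, where 74 members were called lower in Dnmt1-/- and 29 in TKO, and above it on the right, where 59 were called higher in Dnmt1-/- and 18 in TKO.

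The ESC identity markers gave the following values at day 4. Of the 12 markers, 6 in TKO, 12 in *Dnmt1-/-* and 12 in wt were at least 2-fold below their own day 0 level at day 4, and their mean level was 9.55 and 10.07 on the TKO arrays, 8.63 and 7.36 on the *Dnmt1-/-* arrays and 7.01 and 7.04 on the wt arrays. *Pou5f1*, the pluripotency factor Oct4, read 11.42 and 11.31 in TKO, 10.58 and 8.89 in *Dnmt1-/-* and 8.52 and 9.13 in wt at day 4. Replicate 1 of *Dnmt1-/-* day 4 thus kept higher ESC markers than replicate 2, and it also had the smaller median decrease of the members. *Sox2* and *Dppa5a* belong to both lists. The part of the remaining ESC signal in the members' values was not tested.

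For the return at day 16, 18 members were called higher than at day 4 in TKO (14.1%), against 0.794% of all probe sets, and 59 in *Dnmt1-/-* (46.1%), against 2.39% of all probe sets. No member was called lower in either line (limma; 10 in TKO and 2 in *Dnmt1-/-* at an unadjusted p under 0.05; all probe sets 0.617% and 0.313%). The median log2 change was 0.51 in TKO and 1.10 in *Dnmt1-/-*, against 0.01 and -0.07 over all probe sets, and ranged from 0.35 to 0.68 in TKO as single arrays were left out. Day 16 means exceeded day 4 means for 97 members in TKO and for 120 in *Dnmt1-/-*, and both day 16 arrays lay above both day 4 arrays for 73 (20.4% of all probe sets) and 110 members (17.8% of all probe sets). The changes at day 4 and at day 16 share the day 4 arrays, so that an extreme day 4 value enters both. Fewer members were called in TKO without replicate 1 of day 4 (1), replicate 2 of day 4 (10), or replicates 1 and 2 of day 16 in turn (3 and 5). In *Dnmt1-/-* the count was 35 without replicate 1 of day 16 and 38 without replicate 2 of day 4.

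Both lines shared 17 of these calls, *Dnmt1-/-* alone had 42, 68 members were called in neither, and *Gadd45b*, a stress-inducible gene, was called in TKO alone. *Gadd45b* read 7.75 and 7.69 at day 0, 7.70 and 7.95 at day 4 and 9.49 and 9.27 at day 16 in TKO, with a day 16 change of 1.56 ± 0.26 (SE, adjusted p = 0.0097). Its change in *Dnmt1-/-* was 0.73 ± 0.26 (SE, adjusted p = 0.15). The largest TKO increases were those of *Lgals9* and *Rhox9*. *Lgals9*, which encodes the secreted lectin galectin-9, read 6.56 and 6.71 at day 0, 6.40 and 6.14 at day 4 and 8.90 and 8.94 at day 16 in TKO. The *Dnmt1-/-* arrays gave 6.86 and 6.93 at day 0, 6.05 and 6.24 at day 4 and 9.81 and 9.37 at day 16, and the wt arrays 6.59 and 6.77 at day 0, 5.42 and 5.69 at day 4 and 9.64 and 10.90 at day 16. Its day 16 arrays thus stood clearly above both earlier days in all 3 lines, while the day 4 decrease was small in both mutants (-0.37 in TKO and -0.75 in *Dnmt1-/-*, neither called). The X-linked homeobox gene *Rhox9* behaved likewise, with a day 16 change of 2.55 ± 0.52 (SE, adjusted p = 0.025) in TKO and 2.68 ± 0.52 (SE, adjusted p = 0.01) in *Dnmt1-/-*.

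The largest increase of any member in *Dnmt1-/-* was that of *Lama1*, the laminin α1 chain of early basement membranes, at 4.40 ± 0.48 (SE, adjusted p = 0.00018). Its signals were 8.52 and 8.15 at day 0, 6.38 and 7.02 at day 4 and 7.82 and 7.62 at day 16 in TKO. In *Dnmt1-/-* the signals were 7.90 and 7.64 at day 0, 6.03 and 6.07 at day 4 and 10.30 and 10.60 at day 16, and in wt they were 7.46 and 7.70 at day 0, 6.36 and 6.61 at day 4 and 7.62 and 9.74 at day 16. Replicate 2 of wt day 16 stood well above replicate 1. The day 16 change in TKO, 1.02 ± 0.48 (SE, adjusted p = 0.35), was not called. *F3*, tissue factor, changed by 1.23 ± 0.31 (SE, adjusted p = 0.06) in TKO, where it was not called, and by 3.17 ± 0.31 (SE, adjusted p = 8.5e-05) in *Dnmt1-/-*. The mean of 22 visceral endoderm markers at day 16 was 8.44 and 7.98 in TKO and 9.76 and 9.34 in *Dnmt1-/-*. In wt it was 9.02 and 8.68, and on the day 0 arrays 5.78 to 6.04. At day 16, wt replicate 1 had the higher marker mean and the lower *Lama1* signal. Between the mutants, *Dnmt1-/-* had the higher values of both. Of these markers, which include the member *Lrp2*, 13, 19 and 14 stood at least 2-fold above day 0 in TKO, *Dnmt1-/-* and wt. The mean of 19 contractile and stromal markers, none of them members, was 6.91 and 6.46 in TKO, 8.34 and 7.96 in *Dnmt1-/-* and 9.40 and 9.36 in wt at day 16, against 5.87 to 6.43 on the day 0 arrays. Of these, 5 in TKO, 13 in *Dnmt1-/-* and 14 in wt stood at least 2-fold above day 0. The part of either set of markers in the members' return was not tested.

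Taking both steps together, 8 members were called lower at day 4 and higher at day 16 in TKO (0.124% of all probe sets) and 37 in *Dnmt1-/-* (0.293% of all probe sets). All 8 were among the 37. By the lines of the wt rule applied to the means alone, 16 members passed in TKO (0.252% of the probe sets with a single symbol), 45 in *Dnmt1-/-* (0.509%) and 15 in both. The 8 members were *Cd68*, *Ephx1*, *Folr1*, *Myof*, *Nqo1*, *Reep6*, *Slc1a1* and *Slc7a1*. At the other end, 89 members in TKO and 32 in *Dnmt1-/-* were called in neither step, 21 and 37 at day 4 alone, and 10 and 22 at day 16 alone. The count of 8 fell to 1, 3, 0, 2 and 1 without replicate 1 of TKO day 0, replicate 2 of day 0, replicate 1 of day 4 and replicates 1 and 2 of day 16, and to 3 in a fit of the mutant arrays alone. The 37 became 23 without replicate 1 of *Dnmt1-/-* day 16 and 19 without replicate 2 of day 4.

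Among these 8, *Nqo1* read 7.66 and 7.10 at day 0, 5.56 and 6.42 at day 4 and 7.63 and 7.47 at day 16 in TKO. In *Dnmt1-/-* it read 8.03 and 7.64 at day 0, 5.93 and 5.08 at day 4 and 8.53 and 8.0 at day 16, and in wt it read 7.58 and 7.47 at day 0, 5.20 and 4.83 at day 4 and 8.67 and 8.95 at day 16. No day 4 array of any line reached a day 0 or day 16 array of the same line. The day 4 and day 16 changes were -1.39 ± 0.33 (SE, adjusted p = 0.026) and 1.56 ± 0.33 (SE, adjusted p = 0.03) in TKO, and -2.33 ± 0.33 (SE, adjusted p = 0.0008) and 2.75 ± 0.33 (SE, adjusted p = 0.00035) in *Dnmt1-/-*. *Folr1*, a folate receptor of epithelia, read 8.83 and 8.17 at day 0, 6.80 and 7.40 at day 4 and 8.51 and 8.26 at day 16 in TKO. The *Dnmt1-/-* arrays gave 8.61 and 8.31 at day 0, 6.25 and 6.28 at day 4 and 9.52 and 8.81 at day 16, and the wt arrays 8.47 and 8.01 at day 0, 6.36 and 6.31 at day 4 and 8.15 and 8.14 at day 16. Its return went past the day 0 level on both *Dnmt1-/-* arrays. *Slc7a1*, the main carrier of arginine and lysine, read 8.71 and 8.98 at day 0, 6.22 and 7.04 at day 4 and 7.73 and 8.21 at day 16 in TKO. Signals in *Dnmt1-/-* were 8.51 and 8.60 at day 0, 6.85 and 6.89 at day 4 and 7.88 and 8.14 at day 16, and those in wt 8.21 and 8.21 at day 0, 7.07 and 6.65 at day 4 and 7.97 and 8.05 at day 16. Here the TKO decrease, -2.22 ± 0.24 (SE, adjusted p = 0.00041), was among the 6 largest called in that line. *Slc1a1*, a carrier of glutamate and cysteine, read 7.27 and 7.13 at day 0, 5.61 and 5.84 at day 4 and 7.01 and 7.37 at day 16 in TKO. For *Dnmt1-/-* the values were 7.38 and 6.18 at day 0, 5.12 and 4.89 at day 4 and 6.65 and 6.27 at day 16, and for wt 5.85 and 5.76 at day 0, 4.60 and 4.96 at day 4 and 5.83 and 6.20 at day 16. There was a wide gap between the *Dnmt1-/-* arrays of day 0.

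*Cd68*, a lysosomal glycoprotein best known from macrophages, read 8.13 and 8.07 at day 0, 6.46 and 6.99 at day 4 and 8.72 and 8.39 at day 16 in TKO. *Dnmt1-/-* cells gave 8.40 and 8.55 at day 0, 7.12 and 6.68 at day 4 and 9.03 and 8.61 at day 16, and wt cells 7.55 and 7.93 at day 0, 7.08 and 6.37 at day 4 and 9.36 and 9.61 at day 16. Its return was called at 1.83 ± 0.27 (SE, adjusted p = 0.0041) in TKO and 1.92 ± 0.27 (SE, adjusted p = 0.00096) in *Dnmt1-/-*. The macrophage gene *Lyz2* read 3.66 and 3.95 in TKO, 6.08 and 5.31 in *Dnmt1-/-* and 9.22 and 8.68 in wt at day 16, against 3.25 to 3.79 on the 6 day 0 arrays. *Csf1r*, a receptor of the macrophage lineage, read 6.30 and 6.04 in TKO, 6.83 and 6.66 in *Dnmt1-/-* and 7.64 and 8.75 in wt at day 16, against 4.64 to 5.05 on the day 0 arrays, and was thus higher at day 16 in all 3 lines. Of 20 myeloid markers, 3 of them members (*Cd68*, *Laptm5* and *Nckap1l*), 1 in TKO, 2 in *Dnmt1-/-* and 17 in wt stood at least 2-fold above day 0 at day 16. Of the 17 that were not members, 1 in TKO and 2 in *Dnmt1-/-* were called higher at day 16 than at day 4. The part of these markers in the return of *Cd68* was not tested. The remaining members of the 8 were *Ephx1*, an epoxide hydrolase, *Myof*, a ferlin of membrane repair, and *Reep6*, which shapes endoplasmic reticulum. Their TKO day 4 changes were -1.89 ± 0.24 (SE, adjusted p = 0.0006) for *Ephx1*, -1.16 ± 0.26 (SE, adjusted p = 0.017) for *Myof* and -1.30 ± 0.23 (SE, adjusted p = 0.0055) for *Reep6*. In wt, *Ephx1* ended far above its day 0 level (8.45 and 8.02, against 6.51 and 6.56), whereas both mutants ended below theirs (6.96 and 6.81 against 7.74 and 7.65 in TKO, and 6.89 and 6.58 against 7.59 and 7.40 in *Dnmt1-/-*).

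**Figure D3:**
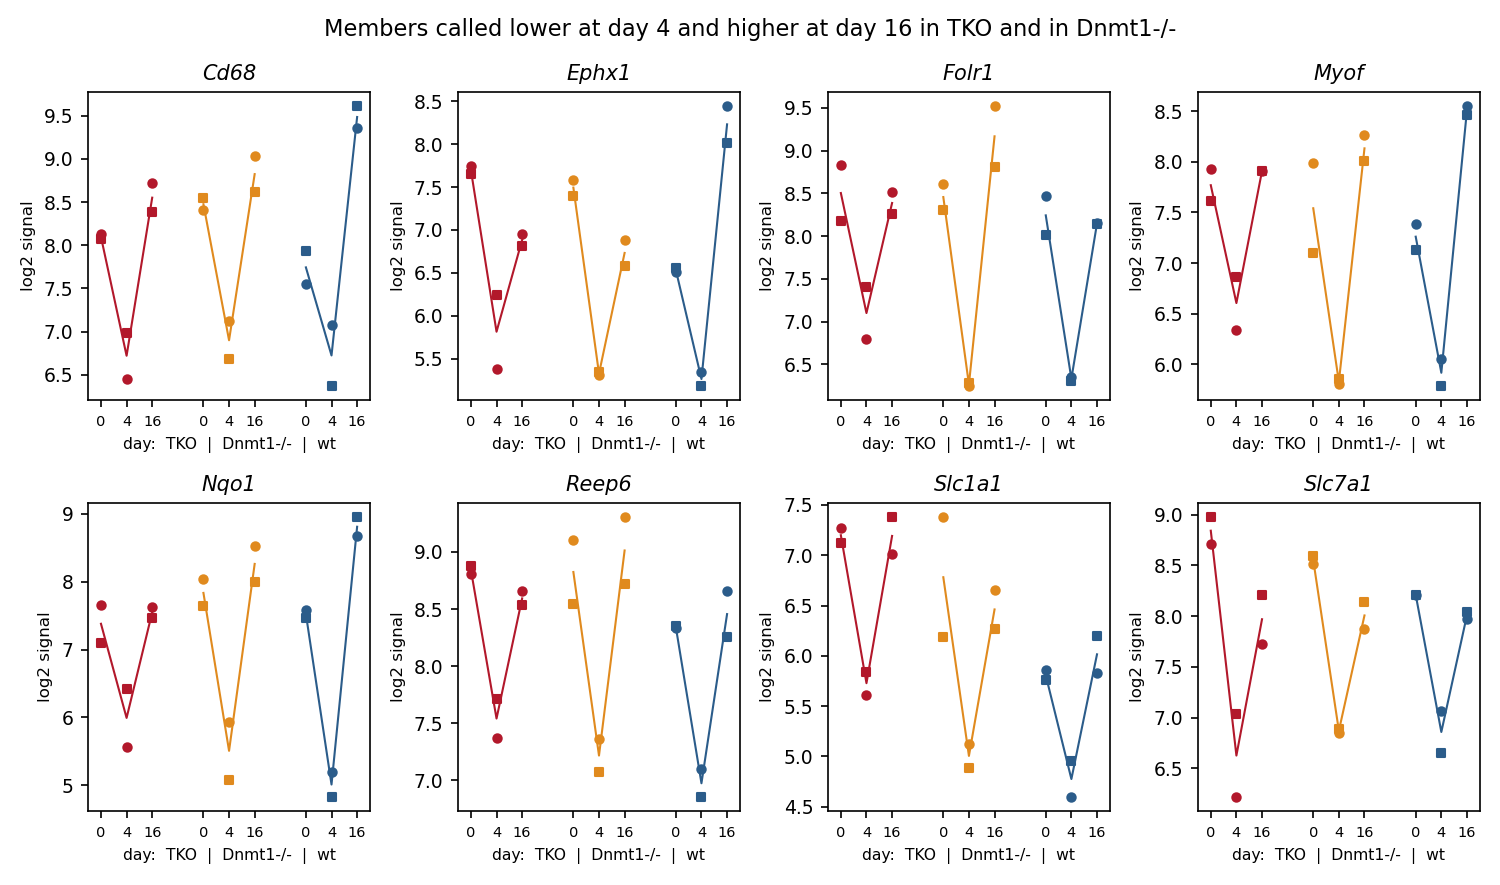
Log2 signal (vertical axis, scaled per gene) of the 8 members called lower at day 4 and higher at day 16 in both mutants, by day within TKO (red), Dnmt1-/- (orange) and wt (blue). Circles are replicate 1, squares replicate 2 and lines join the means of 2 arrays; for each gene the day 4 arrays lie lowest in TKO and in Dnmt1-/-.

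The mutants were also compared directly. At day 0 no member was called between TKO and *Dnmt1-/-* (limma; 3 at an unadjusted p under 0.05; 0.00563% of all probe sets called lower and 0.0% higher). At day 4, 19 members were called higher in TKO than in *Dnmt1-/-* (14.8%), against 0.549% of all probe sets, and none lower (limma; 0 at an unadjusted p under 0.05; all probe sets 0.298%). The median difference was 0.77, and 115 of the 128 members lay higher in TKO. At an unadjusted p under 0.05 (limma), 80 members were higher in TKO, against 2040 of all 35512 probe sets. The 5 largest called differences were those of *Enpp3*, *Chchd10*, *Mal2*, *Sox2* and *Gstm3*. The count depended on the day 4 arrays: it was 33 and 1 without replicates 1 and 2 of *Dnmt1-/-*, and 9 and 0 without replicates 1 and 2 of TKO. As descriptions, the members' day 4 means exceeded those of wt by a median of 1.16 in TKO and of 0.37 in *Dnmt1-/-*, and 71 and 24 members lay at least 1 unit above wt, against 4 and 3 at day 0. Because the rule chose members for a low wt signal at day 4, it favours this direction at day 4, and nothing is concluded from it.

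*Enpp3*, an ectonucleotidase, showed the widest gap. It read 9.09 and 9.27 at day 0, 9.28 and 8.88 at day 4 and 9.24 and 9.30 at day 16 in TKO. Values in *Dnmt1-/-* were 9.02 and 8.96 at day 0, 7.45 and 5.92 at day 4 and 8.38 and 8.32 at day 16, and in wt 9.64 and 9.73 at day 0, 5.79 and 5.46 at day 4 and 6.86 and 6.77 at day 16. TKO arrays hardly moved from day to day, while all day 4 arrays of the other lines lay below every day 0 and day 16 array of the same line. The day 4 difference between TKO and *Dnmt1-/-* was 2.39 ± 0.34 (SE, adjusted p = 0.0077). *Sox2*, a core pluripotency factor, read 10.84 and 10.87 at day 0, 9.85 and 10.27 at day 4 and 10.59 and 10.55 at day 16 in TKO. In *Dnmt1-/-* the signals were 11.12 and 10.86 at day 0, 9.02 and 7.66 at day 4 and 9.28 and 9.36 at day 16, and in wt they were 10.80 and 10.97 at day 0, 7.54 and 7.05 at day 4 and 8.81 and 8.73 at day 16. The day 4 difference between the mutants was 1.72 ± 0.33 (SE, adjusted p = 0.025). Its wt return left it far below day 0. *Itga6*, the laminin-binding integrin α6, read 8.72 and 8.88 at day 0, 8.66 and 8.79 at day 4 and 8.95 and 8.77 at day 16 in TKO. The *Dnmt1-/-* arrays gave 8.68 and 8.64 at day 0, 7.59 and 7.08 at day 4 and 8.64 and 8.84 at day 16, and the wt arrays 8.88 and 8.65 at day 0, 7.23 and 6.55 at day 4 and 8.66 and 8.38 at day 16. Again the TKO arrays of the 3 days overlapped, and the day 4 difference between the mutants was 1.39 ± 0.22 (SE, adjusted p = 0.011).

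At day 16, 6 members were called lower in TKO than in *Dnmt1-/-* (4.69%), against 0.941% of all probe sets, and none higher (limma; 25 at an unadjusted p under 0.05; all probe sets 0.13%). They were *Lama1* (-2.73), *F3* (-1.91), *Hhip* (-1.70), *Ptgs2* (-1.25), *Ddc* (-1.22) and *Tm4sf5* (-1.14), given as log2 differences. That of *Hhip* was not called under 10 of the alternatives, which include a fit of the mutant arrays alone and the omission of any one TKO array. *Hhip*, an antagonist of hedgehog signalling, read 6.59 and 6.17 at day 0, 5.02 and 5.14 at day 4 and 4.49 and 5.10 at day 16 in TKO, so that it was no higher at day 16 than at day 4. *Dnmt1-/-* gave 6.85 and 5.57 at day 0, 4.64 and 4.60 at day 4 and 6.91 and 6.09 at day 16, and wt gave 6.48 and 6.32 at day 0, 4.49 and 5.01 at day 4 and 7.11 and 7.07 at day 16. The inducible cyclooxygenase gene *Ptgs2* read 6.76 and 6.71 in TKO, 8.24 and 7.74 in *Dnmt1-/-* and 8.18 and 7.95 in wt at day 16. Without replicate 1 of *Dnmt1-/-* day 16, 1 member was called, and likewise 1 without replicate 2 of TKO day 16.

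Differences between the changes themselves had larger errors (median SE 0.287, against 0.203 for a change). No member was called for a difference of the TKO and *Dnmt1-/-* day 4 changes (limma; 61 at an unadjusted p under 0.05, of which 60 had the smaller decrease in TKO; 0.0169% of all probe sets called lower and 0.0141% higher; lowest adjusted p of a member 0.11), and 10 were without replicate 1 of *Dnmt1-/-* day 4. For the day 16 changes, 2 members were called, *Tm4sf5* and *Pls1* (1.56%, against 0.158% of all probe sets). *Pls1* encodes a fimbrin of microvilli and read 7.87 and 7.89 at day 0, 7.93 and 8.09 at day 4 and 8.22 and 8.04 at day 16 in TKO. Signals in *Dnmt1-/-* were 7.80 and 7.58 at day 0, 6.94 and 6.16 at day 4 and 9.09 and 8.49 at day 16, and those in wt 7.19 and 7.45 at day 0, 6.20 and 6.35 at day 4 and 8.11 and 7.77 at day 16. *Tm4sf5*, a tetraspanin-like membrane protein, read 6.62 and 6.68 at day 0, 6.21 and 6.24 at day 4 and 7.16 and 7.11 at day 16 in TKO. For *Dnmt1-/-* the values were 7.06 and 6.78 at day 0, 6.16 and 5.67 at day 4 and 8.30 and 8.26 at day 16, and for wt 6.79 and 6.92 at day 0, 5.62 and 5.59 at day 4 and 7.26 and 7.20 at day 16. *Pls1* showed neither step in TKO, while *Tm4sf5* had smaller steps there than in *Dnmt1-/-*. Neither difference was called without replicate 1 of *Dnmt1-/-* day 16, replicate 2 of *Dnmt1-/-* day 4 or any one TKO array of day 4 or day 16, nor in a fit of the mutant arrays alone, and that of *Pls1* was also lost without any one mutant array of day 0.

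**Figure D4:**
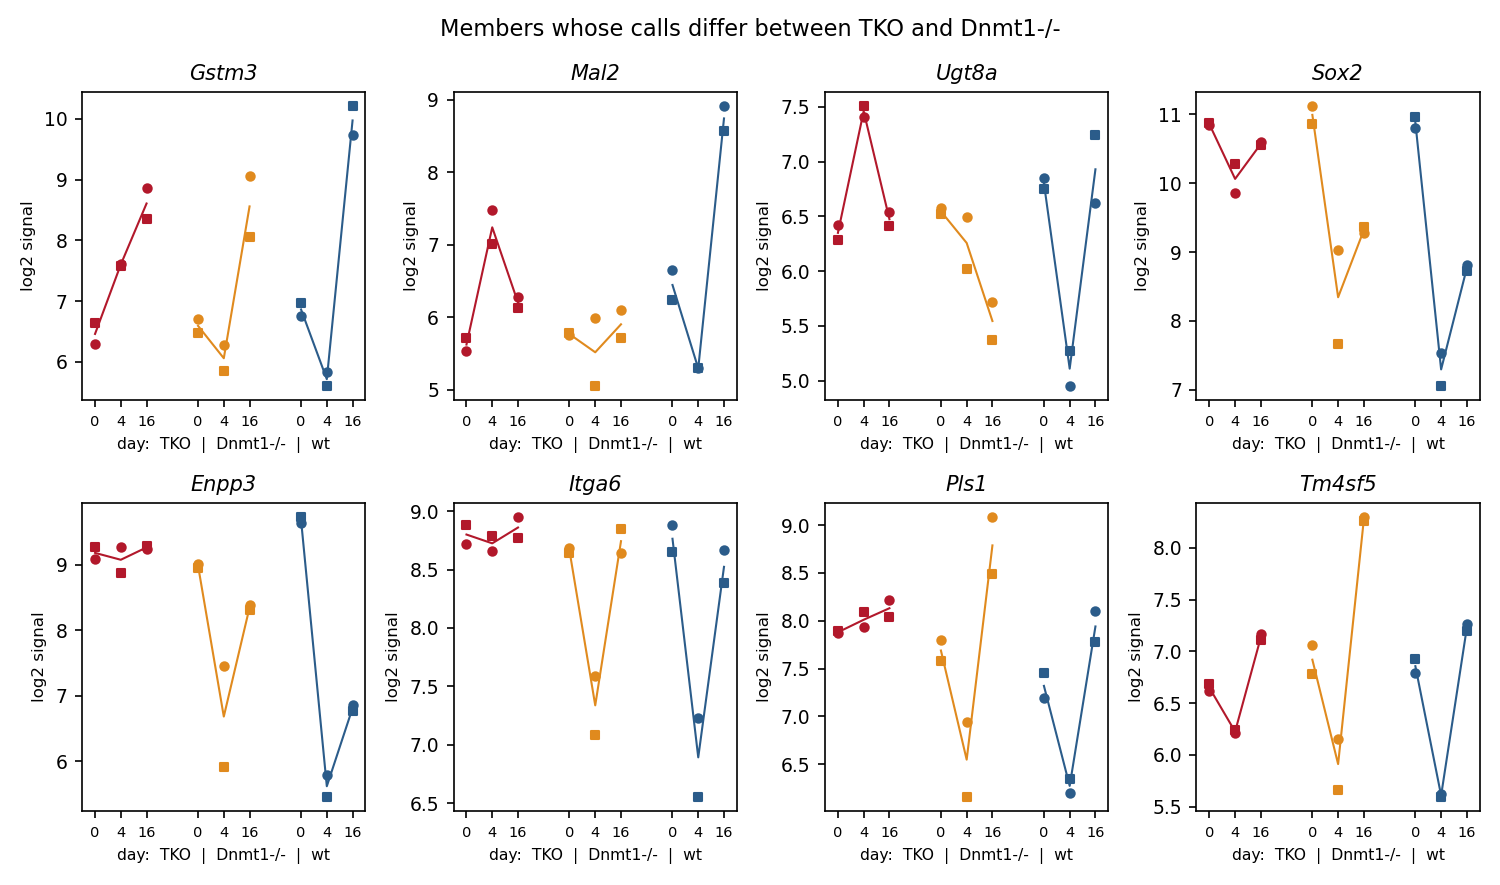
Log2 signal (vertical axis, scaled per gene) of 8 members whose calls were not the same in TKO and Dnmt1-/-, by day within TKO (red), Dnmt1-/- (orange) and wt (blue), with circles for replicate 1, squares for replicate 2 and lines through the means of 2 arrays. TKO day 4 arrays lie above the TKO day 0 arrays for Gstm3, Mal2, Ugt8a and Pls1, whereas for Sox2 and Tm4sf5 they lie below them and for Enpp3 and Itga6 the days overlap.

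Of the 125 member genes, 75 belong to at least 1 of 11 lists of genes by role. The lists were chosen with earlier results of these data known, so nothing is concluded from this count. The lists are described by counts, beside the counts of their other measured genes. Cell adhesion and polarity of epithelia had 13 members. In TKO only *Tgm1* was called lower and *Mal2* higher at day 4, and none was called at day 16 (limma; 5 higher and 1 lower at an unadjusted p under 0.05). In *Dnmt1-/-* 6 were called lower at day 4 and 7 higher at day 16. P-cadherin, *Cdh3*, read 7.98 and 8.10 at day 0, 7.34 and 7.58 at day 4 and 8.60 and 8.22 at day 16 in TKO. *Dnmt1-/-* cells gave 7.99 and 7.85 at day 0, 6.74 and 6.31 at day 4 and 8.66 and 8.32 at day 16, and wt cells 8.01 and 7.89 at day 0, 7.07 and 6.29 at day 4 and 8.67 and 8.86 at day 16. In all 3 lines the day 4 arrays lay lowest, and the day 4 change was called in *Dnmt1-/-* (-1.39, SE 0.24, adjusted p = 0.0029) and not in TKO (-0.57, SE 0.24, adjusted p = 0.23). *Ezr*, which links the apical membrane to actin, gave -0.05 in TKO and -1.02 in *Dnmt1-/-* at day 4. The claudin gene *Cldn4* was called at day 16 in *Dnmt1-/-* (1.22, SE 0.23, adjusted p = 0.0071), with 0.89 ± 0.23 (SE, adjusted p = 0.063) in TKO. Among the 36 other measured genes of the list, 1 was called lower and 10 higher at day 4 in TKO, and 2 lower and 5 higher in *Dnmt1-/-*. At day 16, 5 of these 36 were called higher in TKO and 11 in *Dnmt1-/-*.

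Matrix contact, with integrins and basement membrane, had 7 members. At day 4, 2 were called lower in TKO (*Pcolce* and *Timp1*, an inhibitor of matrix metalloproteinases) and 6 in *Dnmt1-/-*. Of these 6, the call of *Lama1* was lost under 12 of the alternatives tried. They include a further quantile normalization and the omission of any one *Dnmt1-/-* array. At day 16 none was called in TKO (limma; 1 higher at an unadjusted p under 0.05) and 3 were in *Dnmt1-/-* (*Itga3*, *Itga6* and *Lama1*). *Itga3*, the integrin α3 chain, read 7.23 and 7.08 at day 0, 7.87 and 7.82 at day 4 and 8.13 and 7.61 at day 16 in TKO. Values in *Dnmt1-/-* were 7.56 and 7.04 at day 0, 7.13 and 6.56 at day 4 and 8.72 and 8.42 at day 16, and in wt 9.37 and 8.01 at day 0, 6.62 and 6.27 at day 4 and 8.83 and 8.40 at day 16. Its wt day 0 arrays differed by more than 1 unit, and in TKO day 4 lay above day 0. The focal adhesion gene *Tns3* changed by -0.98 ± 0.23 (SE, adjusted p = 0.022) in TKO, just short of the 2-fold line, and by -1.95 ± 0.23 (SE, adjusted p = 0.00026) in *Dnmt1-/-*. *Ltbp4*, a binding protein of latent TGF-β, stayed low at day 16 in both mutants (-0.33 and -0.30 against day 4). Of the 29 other genes of the list, none was called lower (limma; 5 at an unadjusted p under 0.05) and 2 were called higher at day 4 in TKO, and 4 lower and 2 higher in *Dnmt1-/-*. At day 16, 1 of the 29 was called higher in TKO and 11 in *Dnmt1-/-*.

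Wound and immediate responses had 16 members, the most of any list. In TKO 4 were called lower at day 4 (*Emp1*, *Icam1*, *Myof* and *Pdgfc*) and 3 higher at day 16 (*Anxa1*, *Gadd45b* and *Myof*). The TKO call of *Anxa1* was lost under 13 of the alternatives tried, among them median centring, a fit of the mutant arrays alone and the omission of any one *Dnmt1-/-* array. In *Dnmt1-/-* 4 were called lower at day 4 (*Hspb1*, *Icam1*, *Myof* and *Pdgfc*) and 7 higher at day 16. *Anxa1* read 6.93 and 6.62 at day 0, 6.93 and 7.23 at day 4 and 8.82 and 7.89 at day 16 in TKO. Signals of *Dnmt1-/-* cells were 7.48 and 7.26 at day 0, 6.78 and 6.69 at day 4 and 9.04 and 8.73 at day 16, and in wt they were 8.13 and 7.31 at day 0, 5.52 and 5.24 at day 4 and 10.10 and 10.29 at day 16. The TKO arrays of day 4 were not below those of day 0, and the day 4 change was 0.31 ± 0.30 (SE, adjusted p = 0.67) in TKO and -0.63 ± 0.30 (SE, adjusted p = 0.26) in *Dnmt1-/-*. *Pdgfc*, a growth factor for mesenchymal cells, was called lower at day 4 in both mutants and was not higher at day 16 than at day 4 in TKO (-1.12). The heat shock gene *Hspb1* changed by -0.66 ± 0.37 (SE, adjusted p = 0.39) in TKO and -1.61 ± 0.37 (SE, adjusted p = 0.015) in *Dnmt1-/-*, and the urokinase receptor gene *Plaur* by -0.51 ± 0.36 (SE, adjusted p = 0.52) and -0.99 ± 0.36 (SE, adjusted p = 0.12). Among the 36 other genes, 1 was called lower and 4 higher at day 4 in TKO, and 3 lower and 1 higher in *Dnmt1-/-*. Day 16 calls of these other genes were 4 higher in TKO and 10 in *Dnmt1-/-*.

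The 6 members for transport of solutes and vitamins were called in TKO as follows: 4 were called lower at day 4 (*Folr1*, *Slc1a1*, *Slc25a12* and *Slc7a1*) and 4 higher at day 16 (*Aqp3*, *Folr1*, *Slc1a1* and *Slc7a1*). In *Dnmt1-/-* 5 were called at each step. Their median day 4 change was -1.44 in TKO and -1.88 in *Dnmt1-/-*. *Aqp3*, a channel for water and glycerol, read 8.33 and 7.55 at day 0, 6.67 and 6.84 at day 4 and 8.56 and 8.61 at day 16 in TKO. The *Dnmt1-/-* arrays gave 8.88 and 7.79 at day 0, 6.69 and 6.02 at day 4 and 9.16 and 8.67 at day 16, and the wt arrays 8.02 and 7.45 at day 0, 6.16 and 6.36 at day 4 and 8.07 and 8.42 at day 16. The day 4 arrays lay lowest in each line, although the TKO change at day 4 was not called (-1.18, SE 0.36, adjusted p = 0.082). The sodium pump subunit gene *Atp1b1* behaved otherwise, with 8.56 and 8.49 at day 0, 8.61 and 8.67 at day 4 and 9.83 and 9.07 at day 16 in TKO and 8.62 and 8.24 at day 0, 7.48 and 7.39 at day 4 and 10.19 and 9.56 at day 16 in *Dnmt1-/-*. Of the 30 other transporters listed, 3 were called lower and 3 higher at day 4 in TKO, and 8 lower and 3 higher in *Dnmt1-/-*. They gave 5 calls of a higher level at day 16 in TKO and 11 in *Dnmt1-/-*.

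Detoxification and redox defence had 7 members. *Ephx1*, *Gpx2* and *Nqo1* were called lower at day 4 in both mutants and *Gsta4* in *Dnmt1-/-* alone. *Gsta4*, a glutathione S-transferase for lipid aldehydes, read 11.43 and 11.25 at day 0, 10.68 and 11.15 at day 4 and 10.68 and 10.78 at day 16 in TKO. Signals in *Dnmt1-/-* were 11.36 and 11.55 at day 0, 10.04 and 10.24 at day 4 and 9.81 and 9.99 at day 16, and those in wt 11.25 and 11.55 at day 0, 9.95 and 9.89 at day 4 and 11.10 and 11.40 at day 16. The return was thus seen in wt and in neither mutant. *Gstm3* read 6.29 and 6.63 at day 0, 7.62 and 7.59 at day 4 and 8.87 and 8.35 at day 16 in TKO and was thus higher on each later day. In contrast, *Dnmt1-/-* gave 6.71 and 6.47 at day 0, 6.27 and 5.85 at day 4 and 9.06 and 8.05 at day 16, and wt 6.76 and 6.96 at day 0, 5.83 and 5.60 at day 4 and 9.74 and 10.21 at day 16. The metallothionein genes *Mt1* and *Mt2*, which bind zinc, had widely spaced day 4 arrays in *Dnmt1-/-* (10.87 and 9.46 for *Mt1*) and in wt (10.43 and 8.52 for *Mt1*), and neither was called in any step. Of the 30 other genes, 1 was called lower and 3 higher at day 4 in TKO, and 2 lower and 2 higher in *Dnmt1-/-*. By day 16, 1 of them was called higher than at day 4 in TKO and 6 in *Dnmt1-/-*.

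Lipid handling had 8 members, of which none was called lower at day 4 in TKO (limma; 2 at an unadjusted p under 0.05) and *Ugt8a* was called higher. In *Dnmt1-/-* 5 were called lower at day 4 (*Apobec1*, *Cpt1a*, *Fabp3*, *Liph* and *Pltp*). *Liph* read 8.31 and 8.94 at day 0, 6.92 and 7.49 at day 4 and 8.51 and 8.60 at day 16 in TKO. For *Dnmt1-/-* the values were 8.74 and 9.24 at day 0, 5.72 and 4.90 at day 4 and 7.59 and 7.30 at day 16, and for wt 7.30 and 8.14 at day 0, 4.68 and 3.87 at day 4 and 6.32 and 7.39 at day 16. The day 4 arrays lay lowest in each line, and the decrease was -1.42 ± 0.43 (SE, adjusted p = 0.074) in TKO, where it was not called, and -3.68 ± 0.43 (SE, adjusted p = 0.00026) in *Dnmt1-/-*. *Cpt1a*, which admits fatty acids to mitochondria, read 7.49 and 7.53 at day 0, 7.11 and 7.65 at day 4 and 7.67 and 7.54 at day 16 in TKO. *Dnmt1-/-* cells gave 7.54 and 7.27 at day 0, 6.24 and 5.61 at day 4 and 6.85 and 6.72 at day 16, and wt cells 6.86 and 7.17 at day 0, 5.19 and 4.99 at day 4 and 7.95 and 8.30 at day 16. The TKO arrays of the 3 days overlapped. *Lrp2*, the endocytic receptor megalin and a visceral endoderm marker, changed at day 16 by 0.19 ± 0.32 (SE, adjusted p = 0.86) in TKO and 2.16 ± 0.32 (SE, adjusted p = 0.0017) in *Dnmt1-/-*. *Fabp3*, a fatty acid binding protein, was called higher at day 16 in both mutants (1.78, SE 0.40, adjusted p = 0.038 in TKO, and 2.60, SE 0.40, adjusted p = 0.0021 in *Dnmt1-/-*). The TKO call was lost with median centring, in a fit of the mutant arrays alone and without any one TKO array. The *Dnmt1-/-* decrease of *Fabp3* at day 4 was called for 1 of its 2 probe sets (adjusted p = 0.043, against 0.051 for the other, limma) and was lost under 6 alternatives. Of the 36 other genes, 1 was called lower and 3 higher at day 4 in TKO, and 3 lower and 2 higher in *Dnmt1-/-*, while 4 in TKO and 9 in *Dnmt1-/-* were called higher at day 16.

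Pluripotency and LIF signalling had 8 members, with 2 called lower at day 4 in TKO (*Fbxo15* and *Tet2*) and 7 in *Dnmt1-/-*. *Fbxo15*, an F-box gene expressed in ESCs, read 10.06 and 10.03 at day 0, 7.33 and 8.27 at day 4 and 9.34 and 9.46 at day 16 in TKO. Values in *Dnmt1-/-* were 10.20 and 9.76 at day 0, 6.93 and 5.14 at day 4 and 8.44 and 8.36 at day 16, and in wt 9.47 and 9.88 at day 0, 4.93 and 3.60 at day 4 and 6.24 and 5.91 at day 16. This was the deepest decrease of any member in *Dnmt1-/-*. *Tet2*, an enzyme that oxidizes methylated cytosine, read 8.34 and 8.11 at day 0, 5.69 and 6.32 at day 4 and 6.84 and 6.96 at day 16 in TKO. Signals of *Dnmt1-/-* cells were 8.12 and 7.52 at day 0, 5.58 and 5.37 at day 4 and 6.54 and 6.61 at day 16, and in wt they were 7.72 and 7.88 at day 0, 6.51 and 5.30 at day 4 and 7.42 and 7.22 at day 16. In all 3 lines the day 16 arrays of *Tet2* thus lay below those of day 0, by less in wt than in the mutants. *Klf5*, a transcription factor of self-renewal and of epithelia, read 9.06 and 9.29 at day 0, 8.32 and 8.82 at day 4 and 8.30 and 8.52 at day 16 in TKO. The *Dnmt1-/-* arrays gave 9.31 and 9.17 at day 0, 7.90 and 7.53 at day 4 and 7.99 and 8.07 at day 16, and the wt arrays 9.39 and 9.21 at day 0, 7.26 and 7.29 at day 4 and 9.22 and 9.46 at day 16. The return of *Klf5* to its day 0 level was seen in wt and in neither mutant, where the day 16 changes were -0.16 ± 0.19 (SE, adjusted p = 0.77) in TKO and 0.32 ± 0.19 (SE, adjusted p = 0.45) in *Dnmt1-/-*. Among the 27 other genes of this list, 11 were called lower in TKO and 21 in *Dnmt1-/-* at day 4, and 3 and 6 higher at day 16.

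Innate sensing and interferon genes gave 6 members, with *Rnf125* called lower at day 4 in TKO and *Ddx58*, *Ifitm3*, *Mov10* and *Rnf125* in *Dnmt1-/-*. *Ddx58*, the RNA sensor RIG-I, read 8.28 and 7.78 at day 0, 7.20 and 7.63 at day 4 and 7.98 and 7.72 at day 16 in TKO. Signals in *Dnmt1-/-* were 8.42 and 8.12 at day 0, 6.85 and 6.19 at day 4 and 8.63 and 8.24 at day 16, and those in wt 8.04 and 7.94 at day 0, 6.14 and 6.03 at day 4 and 8.07 and 8.58 at day 16. Its day 16 change was 0.44 ± 0.26 (SE, adjusted p = 0.5) in TKO and 1.92 ± 0.26 (SE, adjusted p = 0.00093) in *Dnmt1-/-*. The DNA sensor gene *Aim2* read 7.91 and 7.66 at day 0, 7.76 and 7.67 at day 4 and 7.49 and 6.75 at day 16 in TKO. For *Dnmt1-/-* the values were 7.56 and 7.35 at day 0, 6.98 and 6.84 at day 4 and 6.70 and 6.40 at day 16, and for wt 7.40 and 7.64 at day 0, 5.25 and 5.08 at day 4 and 6.42 and 6.28 at day 16. It was lowest at day 16 in both mutants, and none of their steps was called. Of the 31 other genes, 2 were called lower and 2 higher at day 4 in each mutant, and 1 in TKO and 8 in *Dnmt1-/-* higher at day 16. The lysosomal list had 3 members (*Cd68*, *Laptm5* and *Manba*), with 1 called lower at day 4 in TKO and 2 in *Dnmt1-/-*. For *Laptm5* the *Dnmt1-/-* day 4 arrays lay far apart at 6.26 and 8.25. Of the 27 other lysosomal genes, none was called at day 4 in TKO (limma; 2 lower and 8 higher at an unadjusted p under 0.05) and 1 lower and 1 higher in *Dnmt1-/-*, and 4 in TKO and 10 in *Dnmt1-/-* were called higher at day 16. The list of two-cell-like genes had *AU018091* and *Pramel13*, and of these *AU018091* was called lower at day 4 in TKO (-2.03, SE 0.52, adjusted p = 0.036) and in *Dnmt1-/-* (-3.40, SE 0.52, adjusted p = 0.0012). *Pramel13* belongs to a family of near-identical copies whose signals this probe set may share. Of the 13 other genes of this list, none was called at either step in TKO (limma; 2 lower and 3 higher at day 4, and 3 lower and 3 higher at day 16, at an unadjusted p under 0.05). In *Dnmt1-/-*, 2 were called lower and 2 higher at day 4, and 1 lower at day 16. The germ line list had no member, though 11 of its 27 genes were called lower at day 4 in TKO and 17 in *Dnmt1-/-*, and 10 and 12 were called higher at day 16.

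**Figure D5:**
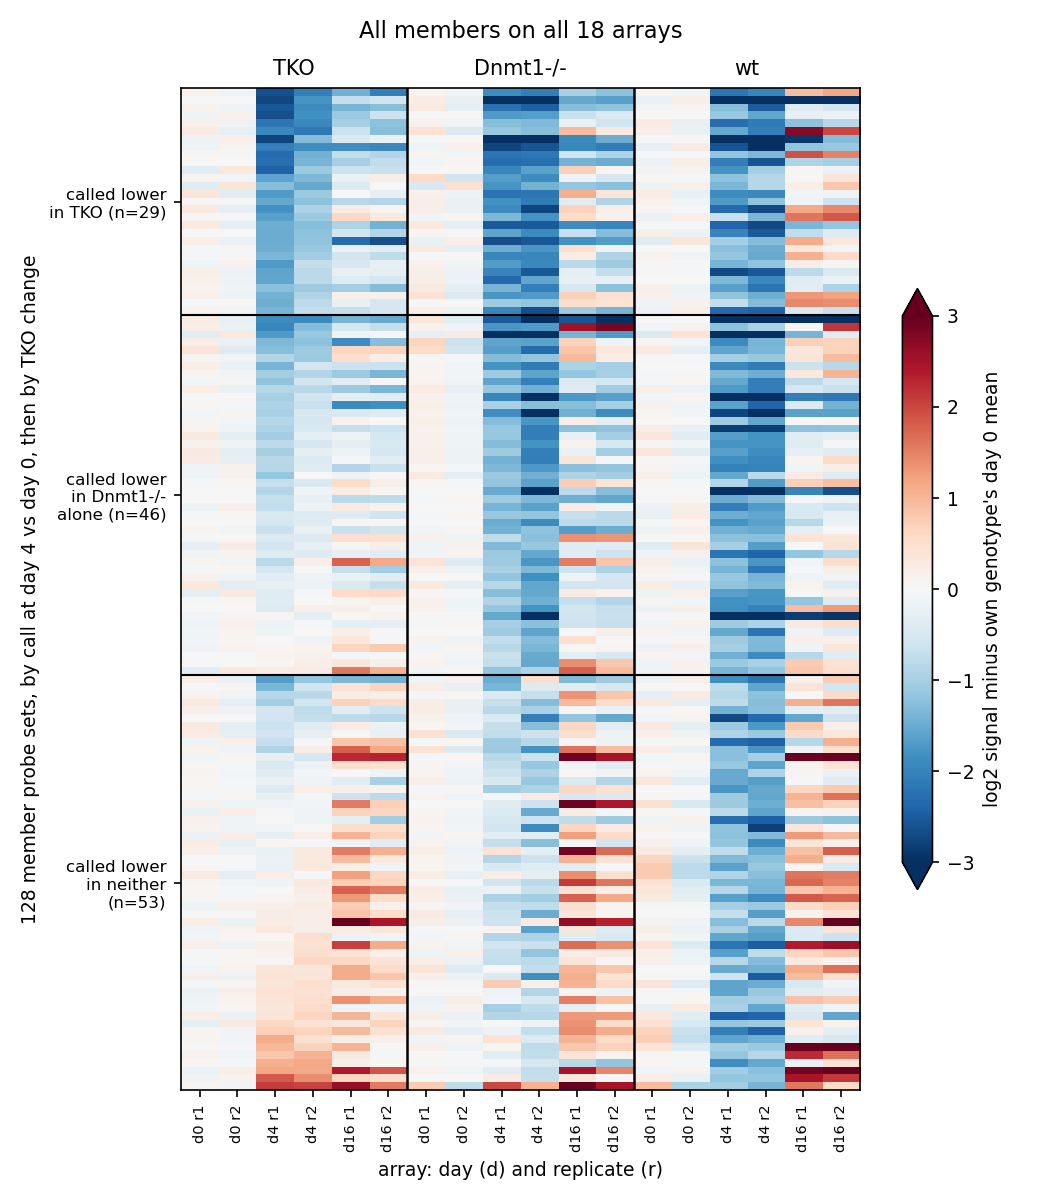
Log2 signal of every member probe set (rows) on all 18 arrays (columns), minus the genotype's own day 0 mean, from blue (lower) to red (higher) with colours ending at 3 log2 units either way; columns run TKO, Dnmt1-/- and wt, each by day and replicate. Rows are split into the 29 members called lower at day 4 in TKO, the 46 called in Dnmt1-/- alone and the 53 called in neither, and ordered within each block by the TKO change, so that the block order itself comes from these calls.

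From day 0 to day 16 as a whole, 10 members were called lower and 7 higher in TKO (0.631% and 1.87% of all probe sets), and 21 lower and 17 higher in *Dnmt1-/-* (2.1% and 4.8%). The median net change was 0.01 in TKO and -0.07 in *Dnmt1-/-*, against 0.11 in wt. Of the 25 members that ended at least 1 unit above day 0 in wt, 4 were called higher and 1 lower in TKO, and 9 higher and 1 lower in *Dnmt1-/-*. Of the 15 that ended at least 1 unit below, 3 were called lower in TKO, and 8 lower and 1 higher in *Dnmt1-/-*. The TKO total of 17 was 7 without replicate 1 of day 0 and 11 without replicate 1 of day 16.

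The members' shares are given beside those of 2 other sets defined on the wt arrays, without a test of the difference. The 509 probe sets that met the wt line on the decrease but not that on the return were called lower at day 4 for 136 in TKO (26.7%) and 345 in *Dnmt1-/-* (67.8%), and the members' shares were 22.7% and 57.8%. The 1183 probe sets that met the line on the return without the decrease were called higher at day 16 for 122 in TKO (10.3%) and 453 in *Dnmt1-/-* (38.3%), and the members' shares were 14.1% and 46.1%. Between the mutants at day 4, 83 of the 509 were called higher in TKO (16.3%), and the members' share was 14.8%. The member genes lay on all autosomes and the X chromosome, with the highest share on chromosome 3 (13 of 124 placed genes, 10.5%, against 4.75% of all placed genes), which was noticed after the values were seen and not tested.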

How the data were processed

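RNA of 18 cultures was hybridised to 1-colour arrays. The authors normalized the scans with RMA and deposited 1 log2 signal per probe set and array, which was used without a further step. Members and lists were chosen with earlier results of these data known. Gene symbols came from the platform annotation (a single symbol for 21789 probe sets, more than 1 for 1621, no symbol for 12102), and 21698 of the single symbols matched RefSeq.

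One model of the 9 group means was fitted to all 18 arrays and 35512 probe sets (limma 3.58.1, R 4.3.3, 9 residual degrees of freedom). A call required a log2 change of at least 1 and a Benjamini-Hochberg adjusted p under 0.05 within the comparison. The scripts were tested on simulated data. The labels call the 2 arrays of a group biological replicates. The p-values thus rest on the spread between cultures within a group, pooled over the 9 groups, the wt groups among them. They do not measure a spread between lines of 1 genotype, and the number of arrays limits the precision. Replicates correlated at 0.981 to 0.991 across probe sets, which are not independent.

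Genes were named by depth of the wt dip (5 per list and 8 overall), size of the called changes and differences, and distance from the lines of the rule. Members listed to spell out a count were named after their values were seen. Alternatives covered scaling, a filter on low signals, the variance model, the arrays fitted, probe sets per gene, the false discovery rate, a replicate block, the lines of the rule and the omission of each array.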

Additional observations from a re-analysis of the deposited data

Results flagged for a closer look

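The change from day 4 to day 16 differed between the mutants for 2 members, by a test of the difference itself (limma, adjusted over all probe sets). The difference, TKO change minus *Dnmt1-/-* change, was -2.12 for *Pls1* and -1.45 for *Tm4sf5* on the log2 scale.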

How the results depend on the processing

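Of 20 counts and medians recomputed under the alternatives, 311 of 365 values stayed within 1.5 times of the reported count or within the replicate spread (1 SD) of the reported median, the others are given below, those without 1 array as ranges, and of 168 calls of named genes 82 were kept in every setting, 86 were lost in at least 1 and none changed direction. The difference of the day 4 changes gave 2 members with 1 probe set per gene and 15 with the false discovery rate taken over all comparisons, against 0. The difference of the day 16 changes gave 9 and 16 in the same settings, and 4 after a further quantile normalization or without the 30% lowest probe sets, against 2. With arrays centred on their median 11 members were called higher at day 16 in TKO, against 18. In a fit of the 12 mutant arrays 3 members were called at both steps in TKO, against 8. With lines of 1.5 the rule kept 30 members. Without any one wt array the rule gave 116 to 163 members, and 102 to 121 of the reported 128 stayed among them. The fewest stayed without replicate 2 of wt day 4. The cause of these shifts was not tested.

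Samples with the same replicate number tended to deviate together. The correlation was positive for all 36 pairs of groups (lowest 0.0409, median 0.273, highest 0.501) and over 0.1 for 32 of them. The paper states that the array data of wt, *Dnmt1-/-* and TKO cells came from 2 independent experiments. The labels do not say whether equal replicate numbers mark the same experiment. The reported fit had no term for the replicate number. With a replicate block, 33 members in TKO and 78 in *Dnmt1-/-* were called lower at day 4 (29 and 74 without), 24 and 66 higher at day 16 (18 and 59), 12 and 42 at both steps (8 and 37), and 23 and 41 for the net change (17 and 38). Between TKO and *Dnmt1-/-* the block gave 26 members at day 4 (19), 8 at day 16 (6) and 7 for the difference of the day 16 changes (2). No call of a named gene was lost.

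Leaving out 1 array at a time, with a lone array assumed to vary like the other groups, gave these ranges. In TKO, 8 to 31 members were called lower at day 4, 1 to 19 higher at day 16, 0 to 9 at both steps and 7 to 18 for the net change, and 8 to 26 passed the lines by their means. In *Dnmt1-/-*, 54 to 74 were called lower at day 4, 35 to 64 higher at day 16 and 19 to 43 at both steps. Between TKO and *Dnmt1-/-*, 0 to 33 were called at day 4, 1 to 7 at day 16, 0 to 10 for the day 4 changes and 0 to 5 for the day 16 changes. The median change of TKO lay between -0.58 and -0.25 at day 4 and between 0.35 and 0.68 at day 16, and that of *Dnmt1-/-* between -1.45 and -1.07 at day 4 and between 0.92 and 1.43 at day 16. With 2 arrays per group and a median SE of 0.287, small differences of changes could not be called.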
